A study of Mus musculus with 4 samples.

Results

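The genes described here are 40 mouse genes of ribosome production and MYC-associated metabolism, found by symbol among the 27597 genes that the 3 deposited tables list by Ensembl identifier. All 40 symbols matched a single identifier. RNA was sequenced from skin fibroblasts of mouse embryos (strain OGXICR, age D13.5, epidermis removed before culture) that carried doxycycline-inducible lentiviral vectors. The OSKM cells received OCT4, SOX2, KLF4 and c-MYC, the G3SKM cells GATA3, SOX2, KLF4 and c-MYC, the SKM cells SOX2, KLF4 and c-MYC, and the empty vector cells a vector without a factor. By the labels c-MYC was delivered in every group but empty vector, but the Myc value does not show it, at 10.5 RPKM in OSKM, 6.31 in G3SKM, 11.9 in SKM and 16.0 in empty vector. The groups are named here as labelled, and the labels give neither the time between infection and harvest nor the cells that took up each vector. Each group has 1 value per gene, which the labels say stands for 2 replicates, so there is no spread between replicates, and no test of any difference below was possible.

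Ribosomes are built in the nucleolus. RNA polymerase I transcribes the ribosomal RNA precursor, small nucleolar ribonucleoproteins guide its chemical modification, and large sets of processing factors cut and fold it into the small and large subunits. MYC is a transcription factor that binds DNA with its partner MAX at E-boxes, and it is known to raise the transcription of many genes of this pathway and of the enzymes that supply nucleotides and polyamines to growing cells.

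The 40 genes together took a larger share of the reads in every group with factors than in empty vector. Scaled to equal depth, their summed reads in reads per 1000000 were 6666 in OSKM, 5905 in G3SKM, 6328 in SKM and 3770 in empty vector, on read numbers recovered from the deposited RPKM (a read number scaled to gene length and library depth). The median ratio over the 40 genes was 1.85-fold for OSKM against empty vector, 1.59-fold for G3SKM and 2.00-fold for SKM. The largest of the ratios was that of Polr1e in G3SKM, at 3.62-fold, and the smallest that of Nop58 in SKM, at 0.574. Ratios are of RPKM with nothing added. Brackets after a ratio hold its 95% interval (Clopper-Pearson), which covers counting error only and not differences between cultures.

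Promoter sequences of genes at both ends of the range of SKM against empty vector are shown first. Whether MYC acted at any of them was not tested. The sequences are the 250 bases before the annotated start on the plus strand of the RefSeq mouse genome GRCm38.p6, in lower case, 5′ to 3′. Srm, Ppan and Rrp9 had the largest log2 ratios, and Nop58 the smallest. The windows lie at chr9:20887925-20888174 for Ppan, chr9:106477059-106477308 for Rrp9 and chr1:59684756-59685005 for Nop58.
Ppan: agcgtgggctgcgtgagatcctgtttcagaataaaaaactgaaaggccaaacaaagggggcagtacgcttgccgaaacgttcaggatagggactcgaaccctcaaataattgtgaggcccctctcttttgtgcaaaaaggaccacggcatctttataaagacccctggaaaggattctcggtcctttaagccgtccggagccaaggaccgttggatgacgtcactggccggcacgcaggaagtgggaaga
Rrp9: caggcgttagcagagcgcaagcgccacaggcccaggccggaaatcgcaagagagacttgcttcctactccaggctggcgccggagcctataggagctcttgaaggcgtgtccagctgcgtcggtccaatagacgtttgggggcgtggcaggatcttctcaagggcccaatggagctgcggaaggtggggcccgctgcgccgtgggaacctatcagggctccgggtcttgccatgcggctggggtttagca
Nop58: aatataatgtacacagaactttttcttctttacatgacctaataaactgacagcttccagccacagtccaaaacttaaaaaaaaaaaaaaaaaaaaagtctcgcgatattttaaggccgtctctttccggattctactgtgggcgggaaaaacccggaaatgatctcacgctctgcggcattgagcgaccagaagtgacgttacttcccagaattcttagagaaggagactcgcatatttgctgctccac

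Capitals would mark the E-box CACGTG, which reads the same on both strands, and none of the 3 holds it. The GC content of these stretches was 52.0% for Ppan, 63.6% for Rrp9 and 41.2% for Nop58. RefSeq windows of 300 bases (250 before and 50 after the start) were available for 33 of the 40 genes, and 6 of the 33 (18.2%) held the E-box in at least 1 window, against 8.09% of all 27025 genes in the table. The 6 sites are shown with the E-box in capitals, each on the gene's own strand and with up to 12 bases on either side.
Nop2: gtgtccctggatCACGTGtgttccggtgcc
Pes1: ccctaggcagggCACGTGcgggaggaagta
Wdr43: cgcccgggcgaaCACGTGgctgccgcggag
Grwd1: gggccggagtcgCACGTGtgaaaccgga
Utp20: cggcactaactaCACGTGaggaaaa
Mybbp1a: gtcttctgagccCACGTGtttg

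In Nop2 the E-box began 60 bases before the annotated start (chr6:125131811-125131840, plus strand), and in the others after it. It began at base 3 in Pes1 (chr11:3963965-3963994, plus strand), 18 in Wdr43 (chr17:71616220-71616249, plus strand), 35 in Grwd1 (chr7:45830740-45830767, minus strand), 38 in Utp20 (chr10:88826765-88826789, minus strand) and 41 in Mybbp1a (chr11:72441355-72441376, plus strand). In SKM the ratios to empty vector of these genes were 2.09 for Mybbp1a, 1.80 for Grwd1, 1.80 for Nop2, 1.62 for Pes1, 1.35 for Wdr43 and 0.763 for Utp20. The E-box genes thus ranged from above the 40-gene median to below 1. A match of letters in these windows is not a measurement of binding.

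The depth recovered from the values was about 74740000 reads in OSKM, 101500000 in G3SKM, 54050000 in SKM and 111100000 in empty vector, and the 40 genes had between 1679 and 68760 reads each. Fibroblast markers (10 genes) summed to 390.9 RPKM in OSKM, 380.9 in G3SKM, 662.6 in SKM and 920.6 in empty vector, with 7 to 9 of them at 1 RPKM or more in each group. Col1a1 and Vim made up most of these sums, and the list was not uniform: Col1a1 was at 352 RPKM in SKM and 332 in empty vector, and Dcn at 1.21 RPKM in OSKM, 0.548 in G3SKM, 0.446 in SKM and 0.259 in empty vector. Lum was at 1.16 RPKM in OSKM, 0.428 in G3SKM, 0.213 in SKM and 0.359 in empty vector. Sums of other cell types' markers moved as well: 8 keratinocyte genes summed to 25.9, 32.9, 50.5 and 0.627 RPKM in the same order, with Krt1 and Dsg3 at 0 in empty vector. The 8 simple epithelial genes summed to 15.6, 19.0, 37.6 and 2.22. These lists were not uniform either. Only 3 of the 8 keratinocyte genes reached 1 RPKM in each factor group, and Krt10 was at 0.492, 0.570, 0.527 and 0.541 RPKM. Of the epithelial genes 4 reached 1 RPKM in OSKM, 5 in G3SKM and 5 in SKM. Krt18 was at 0.313 RPKM in OSKM, 1.27 in G3SKM, 1.59 in SKM and 0.947 in empty vector. The 8 macrophage genes summed to 1.92, 3.42, 4.29 and 31.8 RPKM with none at 0, and the sum of the 5 endothelial genes was 0.159 or less in every group. The 16 cell cycle genes summed to 173.9, 130.0, 132.8 and 123.0 RPKM. In these bulk libraries a change in the number of cells of a type and a change in RNA per cell cannot be told apart, and the part of these shifts in the results below was not tested.

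Against empty vector, 9 of the 40 genes were called higher in OSKM, 6 in G3SKM and 14 in SKM, and none was called lower in any of the 3. A gene was called when the log2 ratio of RPKM + 1 was 1 or more, or -1 or less. Only genes that reached 1 RPKM in either group were read, a filter that 39 of the 40 passed, Polr1a and Wdr12 among them through the factor groups alone. The background share called higher was 4.82% of 10212 genes in OSKM, 7.11% of 10298 in G3SKM and 8.88% of 10195 in SKM, and the share called lower 4.16%, 3.75% and 5.98%. The median log2 ratio of the 39 genes was 0.72 in OSKM, 0.56 in G3SKM and 0.88 in SKM, beside 0.18, 0.17 and 0.15 over all genes past the filter. Counted at any size, the ratio was above 1 for 39 of the 40 genes in OSKM, 39 in G3SKM and 35 in SKM, where 64.9%, 63.1% and 58.3% of genes past the filter were above it. These 3 comparisons share the empty vector library, so they are not independent of each other.

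**Figure D1:**
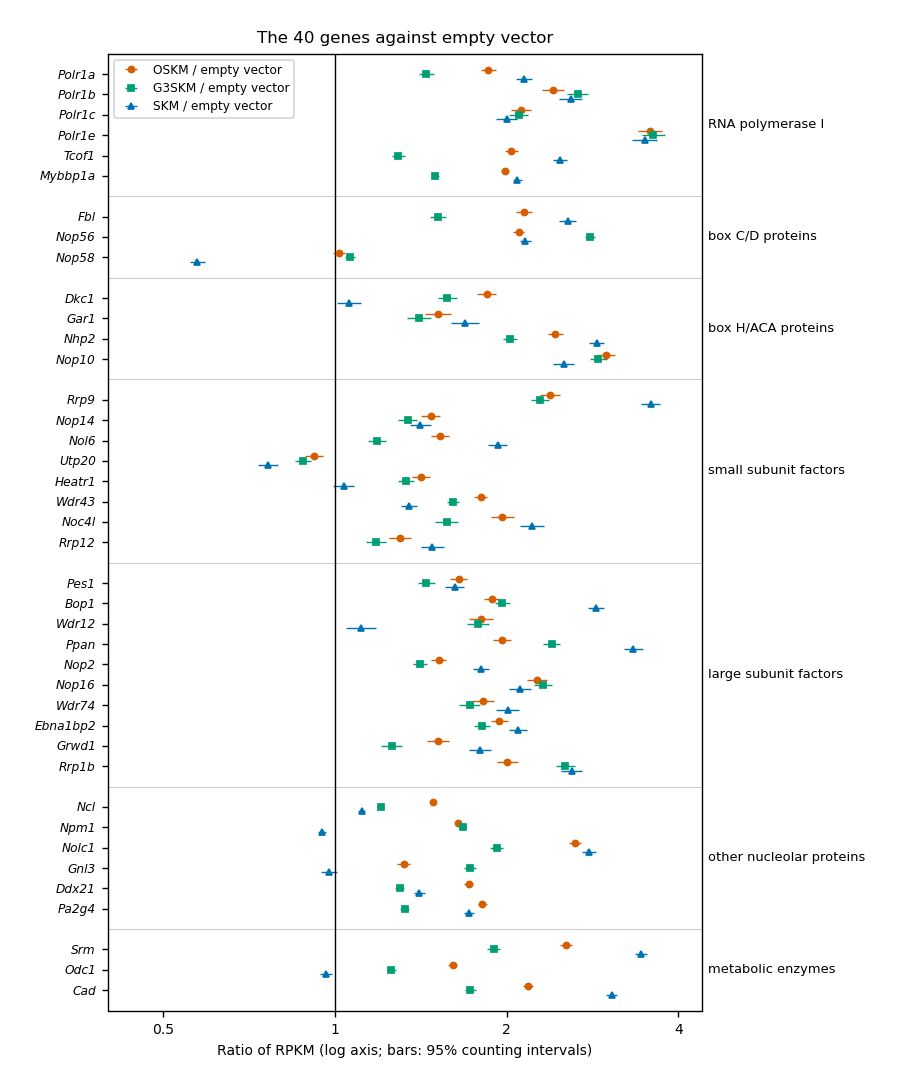
Ratio of RPKM of each of the 40 genes in OSKM, G3SKM and SKM to empty vector (log axis), with 95% counting intervals as bars, grouped by role. Most points lie between 1 and 3-fold, Polr1e reaches 3.62-fold in G3SKM, and Nop58 and Utp20 lie at or under 1.06 in all 3 groups.

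The width of the SKM range went with the base composition of the transcripts. The GC content of the longest transcript was 40.4% to 59.9% over the 40 genes (median 51.4%), and its Spearman's rho with the log2 ratio was 0.647 (Pearson's r 0.712) for SKM against empty vector, 0.315 (0.319) for OSKM and 0.159 (0.165) for G3SKM. Over all genes with a GC value rho was 0.496 for SKM, 0.0597 for OSKM and -0.00225 for G3SKM. The trend in SKM was thus one of all genes. The genes of a library share its depth and preparation, and the correlations are descriptions. For the 14 genes under 50% GC the median ratio to empty vector was 1.68-fold in OSKM, 1.46-fold in G3SKM and 1.11-fold in SKM. For the 26 genes at or over 50% it was 2.00-fold, 1.73-fold and 2.19-fold. After the median log2 ratio of 20 GC bins was subtracted, which also centres all genes on 0, 4 genes were called higher in OSKM, 4 in G3SKM and 7 in SKM (background 2.75%, 4.29% and 3.96%), against 5.97%, 5.39% and 6.06% called lower over all genes, and none of the 40 was called lower. Their medians were 0.57, 0.39 and 0.57.

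**Figure D2:**
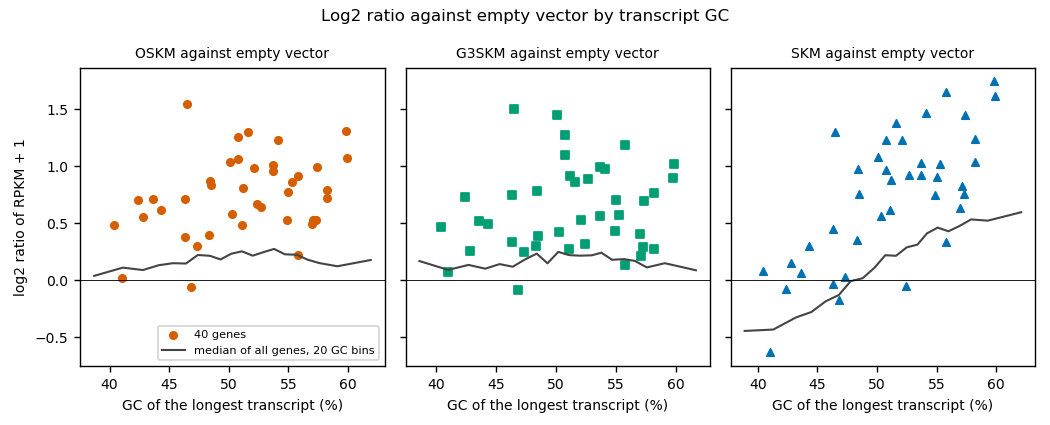
Log2 ratio of RPKM + 1 against empty vector for the 40 genes (points) by GC content of the longest transcript, with the median of all genes in 20 GC bins as a line. The line climbs with GC in SKM and stays near level in OSKM and G3SKM, and most points lie above it in all 3 panels.

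Of the RNA polymerase I genes, Polr1e stood farthest from empty vector in all 3 factor groups. Polr1e, a subunit that takes part in initiation, was at 4.21 RPKM in OSKM, 4.27 in G3SKM, 4.12 in SKM and 1.18 in empty vector. Its ratio to empty vector was 3.56-fold (3.39 to 3.74) in OSKM, 3.62-fold (3.45 to 3.79) in G3SKM and 3.49-fold (3.32 to 3.67) in SKM, and the 3 factor groups differed from each other by no more than counting error. Polr1b, which forms part of the catalytic core, was at 2.73 RPKM in OSKM, 3.01 in G3SKM, 2.93 in SKM and 1.13 in empty vector. Polr1c, a subunit shared with RNA polymerase III, was at 19.4 RPKM in OSKM, 19.1 in G3SKM, 18.2 in SKM and 9.12 in empty vector, with a ratio to empty vector between 2.00 in SKM and 2.12 in OSKM. In all 3 subunits the factor groups lay close together and empty vector was lowest. Polr1a, the largest catalytic subunit, was at 1.61 RPKM in OSKM, 1.26 in G3SKM, 1.87 in SKM and 0.869 in empty vector, and it passed the filter only through the factor groups.

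Tcof1 and Mybbp1a followed another order, with G3SKM lowest among the factor groups. Tcof1, whose product treacle promotes transcription of ribosomal DNA, was at 4.93 RPKM in OSKM, 3.13 in G3SKM, 6.01 in SKM and 2.42 in empty vector. Its ratio to empty vector was 2.04-fold (1.98 to 2.09) in OSKM, 1.29-fold (1.26 to 1.33) in G3SKM and 2.48-fold (2.42 to 2.55) in SKM. Mybbp1a, a nucleolar MYB-binding protein, was at 43.4 RPKM in OSKM, 32.7 in G3SKM, 45.6 in SKM and 21.9 in empty vector. Of the 6 genes of this group, 2 were called higher than empty vector in OSKM, 1 in G3SKM and 3 in SKM, with medians of 0.88, 0.74 and 0.98. Over all genes the shares called higher were 4.82%, 7.11% and 8.88%, and 6 genes are too few to set these counts against them.

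The box C/D proteins, which carry out ribose methylation of ribosomal RNA, differed in their ratios to empty vector. Fbl, the methyltransferase fibrillarin, was at 13.1 RPKM in OSKM, 9.24 in G3SKM, 15.6 in SKM and 6.09 in empty vector. Nop56, a scaffold protein of the particle, was at 51.6 RPKM in OSKM, 68.7 in G3SKM, 53.0 in SKM and 24.6 in empty vector, highest in G3SKM with 2.80-fold (2.74 to 2.85) of empty vector. Nop58, the partner of Nop56 in the same particle, was at 5.06 RPKM in OSKM, 5.29 in G3SKM, 2.86 in SKM and 4.98 in empty vector. Nop58 was thus close to empty vector in OSKM, at 1.02 (0.994 to 1.04), and in G3SKM, at 1.06 (1.04 to 1.08), and was 0.574 (0.556 to 0.591) times empty vector in SKM, under the size of a call. The transcripts of Nop58 have 41.0% GC and those of Nop56 50.1%, and after the GC trend was removed the log2 ratio of SKM to empty vector was -0.20 for Nop58 and 0.97 for Nop56.

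Of the 4 box H/ACA proteins, which form the particle that makes pseudouridine and also part of telomerase, the small proteins Nhp2 and Nop10 stood above empty vector most. Nop10 was at 84.1 RPKM in OSKM, 81.6 in G3SKM, 70.9 in SKM and 28.2 in empty vector, or 2.99-fold, 2.90-fold and 2.52-fold that of empty vector in OSKM, G3SKM and SKM. Its transcripts have 46.5% GC, and it was the only gene of the 14 under 50% GC that was called higher in SKM. Nhp2 was at 38.0 RPKM in OSKM, 31.7 in G3SKM, 45.0 in SKM and 15.6 in empty vector. Dkc1, the pseudouridine synthase dyskerin, was at 5.62 RPKM in OSKM, 4.79 in G3SKM, 3.22 in SKM and 3.04 in empty vector, so that SKM was 1.06 times empty vector. Gar1, a glycine- and arginine-rich protein of the particle, was at 5.92 RPKM in OSKM, 5.48 in G3SKM, 6.61 in SKM and 3.91 in empty vector.

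Among the 8 small subunit factors only Rrp9 was called higher in all 3 factor groups. Rrp9, a protein of the particle that guides the first cleavages of the precursor, was at 9.36 RPKM in OSKM, 9.01 in G3SKM, 14.1 in SKM and 3.93 in empty vector. Its ratio to empty vector was 2.38-fold (2.29 to 2.48) in OSKM, 2.29-fold (2.21 to 2.38) in G3SKM and 3.58-fold (3.44 to 3.72) in SKM, the highest of the 40 genes there. Noc4l, a factor of small subunit assembly, was at 11.0 RPKM in OSKM, 8.80 in G3SKM, 12.4 in SKM and 5.61 in empty vector and was called higher in SKM. Nol6, a nucleolar RNA-associated protein, was at 7.70 RPKM in OSKM, 5.97 in G3SKM, 9.70 in SKM and 5.03 in empty vector. These 3 genes have transcripts of 55.3% to 59.9% GC, and SKM was the highest group in each.

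None of the other 5 small subunit factors was called in any of the 3 comparisons. Heatr1, also needed for ribosomal RNA transcription, was at 1.80 RPKM in OSKM, 1.70 in G3SKM, 1.32 in SKM and 1.27 in empty vector. Utp20, a component of the processome that assembles on the precursor, was at 0.864 RPKM in OSKM, 0.825 in G3SKM, 0.717 in SKM and 0.940 in empty vector, the 1 gene of the 40 that was highest in empty vector and the 1 that stayed under the filter, with ratios of 0.919 (0.887 to 0.951) in OSKM, 0.877 (0.849 to 0.906) in G3SKM and 0.763 (0.732 to 0.795) in SKM. Nop14, a component of the same assembly, was at 3.10 RPKM in OSKM, 2.83 in G3SKM, 2.98 in SKM and 2.11 in empty vector. Wdr43, another processome protein, was between 1.35 and 1.80 times its level in empty vector, and Rrp12, which takes part in export of the subunit precursors, between 1.18 and 1.48 times.

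The 10 large subunit factors had a median log2 ratio of 0.68 in OSKM, 0.73 in G3SKM and 0.91 in SKM against empty vector. Ppan, a factor of large subunit maturation, was at 20.6 RPKM in OSKM, 25.1 in G3SKM, 35.0 in SKM and 10.5 in empty vector. Its ratio to empty vector was 1.96-fold (1.89 to 2.04) in OSKM, 2.40-fold (2.31 to 2.48) in G3SKM and 3.34-fold (3.22 to 3.46) in SKM, and OSKM was the lowest of the factor groups. Nop16, a nucleolar protein of the same pathway, was at 14.2 RPKM in OSKM, 14.5 in G3SKM, 13.2 in SKM and 6.28 in empty vector, and was called higher in OSKM and G3SKM. In SKM its log2 ratio of 0.97 fell just under the size of a call.

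Pes1, Bop1 and Wdr12 form a complex, named PeBoW, that processes the large subunit RNA, and their ratios to empty vector in SKM differed. Bop1 was at 5.03 RPKM in OSKM, 5.24 in G3SKM, 7.65 in SKM and 2.67 in empty vector, highest in SKM. Wdr12 was at 1.75 RPKM in OSKM, 1.73 in G3SKM, 1.08 in SKM and 0.968 in empty vector, and SKM was close to empty vector at 1.11 (1.05 to 1.18). Pes1 was at 5.32 RPKM in OSKM, 4.67 in G3SKM, 5.24 in SKM and 3.23 in empty vector. Their transcript GC was 58.2% for Bop1, 50.3% for Pes1 and 40.4% for Wdr12, the lowest of the 40, and after removal of the GC trend their log2 ratios of SKM to empty vector were 0.70, 0.34 and 0.51.

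The remaining large subunit factors stayed under the size of a call. In OSKM, Rrp1b, Ebna1bp2, Wdr74, Nop2 and Grwd1 were at 2.01, 1.94, 1.82, 1.52 and 1.51 times their level in empty vector, and in G3SKM at 2.53, 1.81, 1.72, 1.41 and 1.26 times. In SKM they were at 2.60, 2.10, 2.01, 1.80 and 1.80 times. Ebna1bp2 and Wdr74 take part in maturation of the large subunit, Nop2 is an RNA methyltransferase, and Grwd1 is a chaperone in ribosome assembly. Rrp1b, a protein that takes part in early processing, had the highest ratio of the 5 in G3SKM, yet its level of 3.18 RPKM in G3SKM and 1.26 in empty vector is close to the pseudocount, which shrinks its log2 ratio to 0.89.

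Of the other nucleolar proteins, Nolc1 was the only one called higher, in OSKM and in SKM. Nolc1, a chaperone of small nucleolar ribonucleoproteins, was at 21.8 RPKM in OSKM, 15.9 in G3SKM, 23.1 in SKM and 8.29 in empty vector, or 2.64-fold (2.57 to 2.71), 1.92-fold (1.87 to 1.97) and 2.79-fold (2.71 to 2.86) of empty vector in the factor groups. Npm1, the abundant nucleolar chaperone nucleophosmin, was at 60.8 RPKM in OSKM, 62.0 in G3SKM, 35.2 in SKM and 37.0 in empty vector. Npm1 was therefore above empty vector by 1.64-fold (1.62 to 1.66) in OSKM and 1.67-fold (1.65 to 1.69) in G3SKM, and just under it in SKM at 0.949 (0.933 to 0.965). Its transcripts have 42.4% GC. In the GC bins with medians of 41.3% and 43.2%, all genes had median log2 ratios of -0.43 and -0.33 in SKM against empty vector. Ncl, or nucleolin, which binds the ribosomal RNA precursor, was at 54.1 RPKM in OSKM, 43.8 in G3SKM, 40.6 in SKM and 36.4 in empty vector.

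Gnl3, the nucleolar GTPase nucleostemin, was highest in G3SKM, at 18.4 RPKM in OSKM, 24.1 in G3SKM, 13.6 in SKM and 14.0 in empty vector. Its transcripts have 46.3% GC. In the GC bins with medians of 45.7% and 46.8%, all genes had median log2 ratios of -0.185 and -0.13 in SKM against empty vector. Ddx21, an RNA helicase, was at 13.8 RPKM in OSKM, 10.5 in G3SKM, 11.4 in SKM and 8.07 in empty vector, and Pa2g4, a growth-regulating RNA-binding protein, at 43.4 RPKM in OSKM, 31.8 in G3SKM, 41.1 in SKM and 24.0 in empty vector. In both of these OSKM was the highest group. The spans of Gnl3, Ncl, Nop56, Nop58, Dkc1, Wdr43, Ppan and Odc1 hold annotated small nucleolar RNA genes on the same strand, and whether reads of these RNAs entered the host genes' values was not tested. Polr1e, Mybbp1a, Nop56, Dkc1, Nhp2, Rrp9, Heatr1, Pes1, Bop1, Wdr12, Rrp1b and Gnl3 overlap a coding gene on the opposite strand, and since the use of strand in counting is not stated, their values may hold reads of that gene.

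Of the metabolic genes, Srm and Cad were among the most different from empty vector in SKM. Srm, the synthase that makes spermidine, was at 64.8 RPKM in OSKM, 48.4 in G3SKM, 87.8 in SKM and 25.5 in empty vector. Its ratio to empty vector was 2.54-fold (2.48 to 2.60) in OSKM, 1.90-fold (1.85 to 1.94) in G3SKM and 3.44-fold (3.35 to 3.53) in SKM, and its log2 ratio of RPKM + 1 in SKM, 1.74, was the largest of the 40. Cad, which starts pyrimidine synthesis, was at 11.6 RPKM in OSKM, 9.22 in G3SKM, 16.3 in SKM and 5.34 in empty vector, with 2.18-fold (2.13 to 2.23), 1.73-fold (1.69 to 1.77) and 3.06-fold (2.99 to 3.12) in the same order. Odc1, the ornithine decarboxylase that feeds polyamine synthesis, went another way, at 50.8 RPKM in OSKM, 39.6 in G3SKM, 30.4 in SKM and 31.6 in empty vector. Odc1 in SKM was just under empty vector, at 0.964 (0.943 to 0.986), although its transcripts have 52.4% GC, and after removal of the GC trend its log2 ratio there was -0.34.

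Levels of different genes were compared per exon length, since the deposited RPKM divide by the whole gene with its introns. On this scale all 40 genes passed the filter, and 12 were called higher than empty vector in OSKM, 10 in G3SKM and 18 in SKM, beside 8.92%, 10.2% and 11.9% of all genes. Npm1 was the most abundant of the 40 in OSKM, G3SKM and empty vector, at 249 in OSKM, 254 in G3SKM, 144 in SKM and 152 in empty vector (RPKM per exon length). In SKM it came after Srm and Nhp2, which stood at 192 and 156. Wdr12 was the least abundant of the 40 in each group, at 4.22 in OSKM, 4.17 in G3SKM, 2.60 in SKM and 2.34 in empty vector. The median of the 40 genes was 29.9 in OSKM, 26.7 in G3SKM, 33.6 in SKM and 16.4 in empty vector. The summed level of the box H/ACA proteins was 275.2 in OSKM, 245.8 in G3SKM, 277.8 in SKM and 113.4 in empty vector, and that of the other nucleolar proteins 586.9, 520.2, 442.7 and 344.5. The orders of these sums turn on single genes and on the measure. The box H/ACA sums of OSKM and SKM were nearly level, and the median of the 4 genes ran the other way, at 62.1 in OSKM, 59.8 in G3SKM, 55.4 in SKM and 24.5 in empty vector. The nucleolar sums hold Npm1 as their largest member, and the median of the 6 genes was 68.4, 53.8, 57.4 and 43.4 in the same order of groups.

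**Figure D3:**
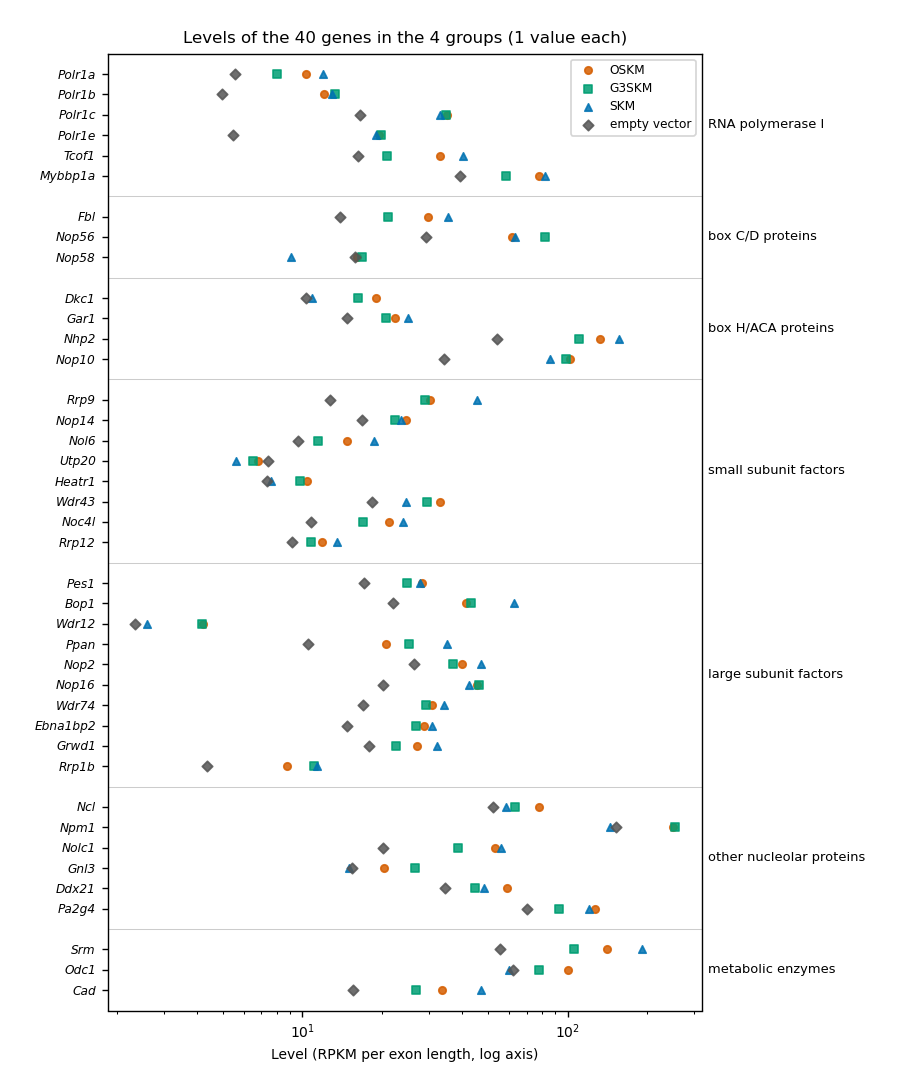
Level of each of the 40 genes in RPKM per exon length (log axis) in OSKM, G3SKM, SKM and empty vector, 1 value per group, grouped by role. Npm1 is the highest point in OSKM, G3SKM and empty vector, Wdr12 the lowest row, and empty vector is the leftmost point in 35 of the 40 rows.

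Empty vector was the lowest of the 4 groups for 35 of the 40 genes, and among the 10860 genes at 1 RPKM or more in any group for 45.4%. SKM was lowest for the remaining 5, Nop58, Utp20, Npm1, Gnl3 and Odc1 (background 29.4%), and neither OSKM nor G3SKM was lowest for any (11.3% and 13.9%). SKM was the highest group for 20 genes (32.6%), OSKM for 12 (20.9%), G3SKM for 7 (24.3%) and empty vector for 1 (22.2%). The gene highest in empty vector was Utp20, which was under 1 RPKM in every group. Utp20 is counted among the 40 here but is not one of the 10860 background genes. Apart from Ebna1bp2 (48.4%), the genes highest in SKM had transcripts of 51.1% to 59.9% GC. Polr1b (51.2%), Polr1c (53.7%) and Odc1 (52.4%) lay in that range but were highest elsewhere. Nop58, Npm1, Gnl3 and Utp20, lowest in SKM, had 41.0% to 46.8%. Ncl, Dkc1, Wdr43, Ddx21 and Nop10, also in that range, were lowest in empty vector. The part of the GC trend of SKM in these orders was not tested. These orders rest on 1 library per group, and neighbours within counting error were not set apart.

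OSKM against SKM asks what OCT4 adds to the other factors. None of the 40 genes was called, beside 2.55% of 10211 genes called higher and 1.64% lower, and the median log2 ratio was -0.08. The ratio was above 1 for 18 of the 40, beside 49.6% of genes past the filter. The range ran from 1.77-fold (1.72 to 1.83) for Nop58, 1.74-fold (1.66 to 1.83) for Dkc1 and 1.73-fold (1.70 to 1.76) for Npm1 at one end to 0.588 (0.569 to 0.609) for Ppan, 0.657 (0.639 to 0.676) for Bop1 and 0.665 (0.643 to 0.688) for Rrp9 at the other. The first 3 have transcripts of 41.0%, 43.6% and 42.4% GC, and the last 3 of 55.8%, 58.2% and 59.9%. Spearman's rho with transcript GC was -0.877 (Pearson's r -0.835) over the 40 genes and -0.708 over all genes. With the GC trend removed the log2 ratio of Npm1 was 0.39, against 0.77 before, that of Srm -0.01 against -0.43, and that of Rrp9 -0.11 against -0.54. That of Odc1 was 0.79 after removal and 0.72 before, and that of Ppan -0.47 and -0.74.

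G3SKM against SKM asks the same of GATA3. No gene of the 40 was called (background 4.43% higher and 1.1% lower of 10214 genes), and the median log2 ratio was -0.20. The ratio was above 1 for 16 of the 40, beside 49.7% of genes past the filter. Tcof1 was lowest relative to SKM, at a ratio of 0.520 (0.507 to 0.534), followed by Srm at 0.551 (0.540 to 0.563), Cad at 0.566 (0.555 to 0.576) and Fbl at 0.593 (0.576 to 0.612). Nop58, Gnl3 and Npm1 were at the other end with 1.85-fold (1.79 to 1.91), 1.77-fold (1.71 to 1.83) and 1.76-fold (1.74 to 1.79). Spearman's rho with transcript GC was -0.810 (Pearson's r -0.800) over the 40 genes and -0.715 over all genes. After removal of the GC trend Fbl stood at -0.59, Pa2g4 at -0.53 and Nolc1 at -0.46 on the log2 scale, and Gnl3 at 0.51. Both comparisons share the SKM library. The delivered factors also differed between these groups: Sox2 was at 110.5 RPKM in OSKM, 70.7 in G3SKM, 187 in SKM and 0.260 in empty vector, and Klf4 at 13.9 RPKM in OSKM, 8.55 in G3SKM, 19.3 in SKM and 6.26 in empty vector. Myc in G3SKM was 0.528 (0.503 to 0.555) times SKM, and in OSKM 0.881 (0.841 to 0.924) times SKM. Pou5f1, the gene of OCT4, was at 3.69 RPKM in OSKM, 0.212 in G3SKM, 0.297 in SKM and 0 in empty vector, and Gata3 at 0.0836 RPKM in OSKM, 0.571 in G3SKM, 0.0444 in SKM and 0.0639 in empty vector, under the filter in every group and highest in G3SKM. The part of these levels in the differences among the 40 genes was not tested.

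OSKM against G3SKM leaves SKM and its GC trend out and sets OCT4 beside GATA3. Again no gene was called, where 0.724% of 10222 genes were called higher and 2.25% lower. The ratio was above 1 for 30 of the 40 genes, with a median of 1.09, and 51.8% of genes past the filter lay above it. The largest ratios were 1.58 (1.54 to 1.62) for Tcof1, 1.41 (1.37 to 1.46) for Fbl, 1.37 (1.34 to 1.40) for Nolc1, 1.37 (1.34 to 1.39) for Pa2g4 and 1.34 (1.31 to 1.37) for Srm. The smallest were 0.751 (0.738 to 0.765) for Nop56, 0.764 (0.744 to 0.783) for Gnl3, 0.792 (0.765 to 0.820) for Rrp1b and 0.819 (0.793 to 0.845) for Ppan. Spearman's rho with GC was 0.236 (Pearson's r 0.215) over the 40 genes and 0.0558 over all genes. Myc in OSKM was 1.67 (1.59 to 1.75) times G3SKM, and the 16 cell cycle genes had a median log2 ratio of 0.42. The part of either in the differences among the 40 genes was not tested.

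**Figure D4:**
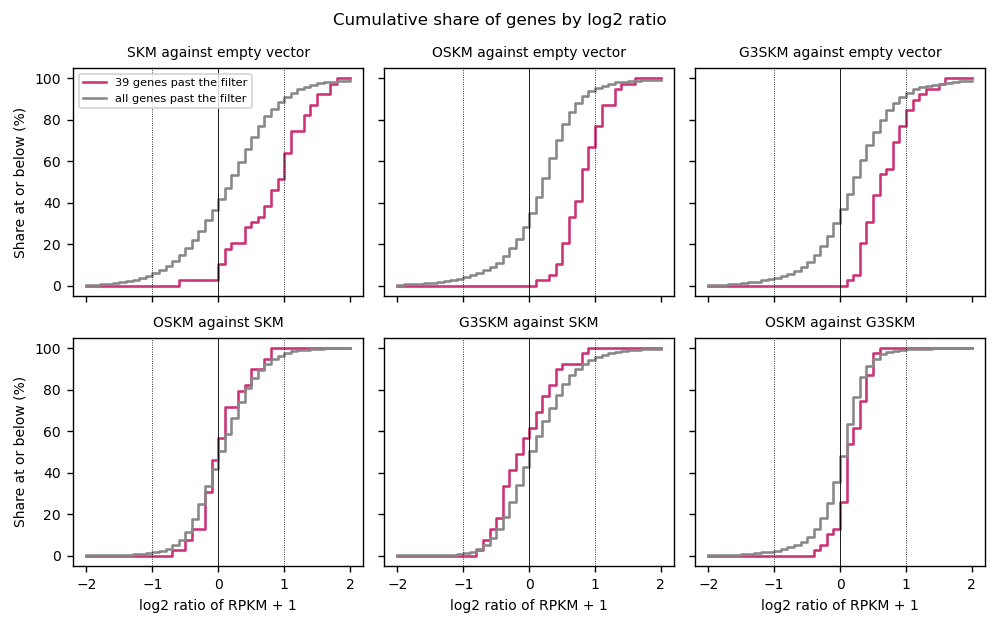
Cumulative share (%) of the 39 genes past the filter and of all genes past it by log2 ratio of RPKM + 1, in 6 comparisons, with dotted lines at -1 and 1. Over most of the range the 39 genes lie to the right of all genes in the 3 comparisons with empty vector, and they lie within -1 and 1 in the others.

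Other genes of the pathway, on 7 lists of 135 genes without the MYC network, stood above empty vector by less. Their counts of calls were near the share over all genes or below it. In OSKM 5 of 120 past the filter were called higher and none lower, beside 4.82% of all genes called higher, with a median log2 ratio of 0.47. In G3SKM it was 3 of 122 (all genes 7.11%) with a median of 0.41, and in SKM 11 of 115 higher and 2 lower (all genes 8.88% and 5.98%) with a median of 0.32. The 40 genes were chosen with earlier results of these data known, so that their medians are larger is no independent result.

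By list, the small subunit factors outside the 40 had medians of 0.49 in OSKM, 0.49 in G3SKM and 0.32 in SKM over 35 of 36 genes, and Tbl3 (1.14 in SKM) was the 1 called. The other large subunit factors had 0.51, 0.38 and 0.34, with 3 of 32 called in SKM, near the 8.88% of all genes, among them Nle1 (1.16) and Mrto4 (1.11). Of the other RNA polymerase I genes Taf1d, a subunit of its promoter selectivity factor, was the 1 of 8 called higher, in G3SKM (all genes 7.11%). It was at 11.2 RPKM in G3SKM and 4.48 in empty vector. Among assembly factors of the small nucleolar ribonucleoproteins, Ruvbl2, an ATPase, was called in OSKM (1.14) and SKM (1.43), and Znhit3 in G3SKM (1.02). Of the exosome, which degrades and trims RNA, Exosc4 was called in OSKM (1.09) and SKM (1.40), and Exosc5 in SKM (1.06). After removal of the GC trend none of these calls of Ruvbl2, Znhit3, Exosc4 and Exosc5 remained. Ruvbl2 was then at 0.99 in OSKM and 0.90 in SKM, and Znhit3 at 0.88 in G3SKM. Exosc4 was at 0.86 in OSKM and 0.94 in SKM, and Exosc5 at 0.65 in SKM. Taf1d in G3SKM stayed called, at 1.07. Values after removal are not given here for Tbl3, Nle1 and Mrto4.

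Nucleotide and polyamine enzymes went in both directions in SKM. Impdh1, of guanine nucleotide synthesis, was at 10.0 RPKM in SKM and 3.47 in empty vector. Dhodh, of pyrimidine synthesis, was at 3.10 RPKM in SKM and 0.787 in empty vector. They are 2 of 4 nucleotide genes called higher of 18, beside 8.88% of all genes. Rrm1, a subunit of ribonucleotide reductase, was the 1 called lower, beside 5.98% of all genes. It was at 3.70 RPKM in SKM and 8.78 in empty vector, and was not called after removal of the GC trend. In OSKM, Ppat, which starts purine synthesis, was at 3.09 RPKM in OSKM and 0.721 in empty vector, and Gart, a later enzyme of the same route, at 9.83 RPKM in OSKM and 3.76 in empty vector. Paics, also of purine synthesis, was the 1 gene of these lists called in OSKM against SKM, at 13.0 RPKM in OSKM and 5.42 in SKM. That comparison had a GC trend over all genes (Spearman's rho -0.708). Values after removal of the GC trend are not given here for Paics, Impdh1, Dhodh, Ppat and Gart, and whether their calls remain is left unstated. Of the polyamine genes Azin1, which counters the inhibitor of Odc1, was the 1 of 6 called lower in SKM (all genes 5.98%). It was at 1.37 RPKM in SKM and 3.89 in empty vector, and was not called after removal of the GC trend.

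Myc itself was highest in empty vector, and it was called lower than empty vector in G3SKM only, at a ratio of 0.395 (0.380 to 0.412). Where c-MYC was delivered, the value may hold both delivered and endogenous transcripts. Max, the partner of MYC, was at 2.96 RPKM in OSKM, 2.35 in G3SKM, 3.09 in SKM and 1.31 in empty vector, and Mnt, which competes for MAX, at 2.72 RPKM in OSKM, 2.48 in G3SKM, 4.02 in SKM and 1.66 in empty vector, both under the size of a call and both named after their values were seen.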

How the data were processed

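Per the labels' protocols, total RNA (TRIzol, DNase) was sequenced from PCR-amplified cDNA, which the labels call single cell cDNA, and 2 replicates stand behind each group's value. Reads were handled with TopHat 1.3.0 and build mm9, per the submitters' processing notes. Which counter and annotation were used is not given in the sources used here. The authors' deposited values are RPKM, and the deposited log2 ratio columns were not used. The SKM column was identical in the 3 tables (largest difference 0), so columns of different tables were also set side by side. A value of 0.001 was read as 0.

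Symbols, spans, exon lengths (union over transcripts) and transcript GC came from GENCODE M21, which held 91.0% of the listed genes. It is of a later build than mm9. RPKM multiplied by gene end minus start fell within 0.05 of whole multiples of 1 step per column for 74.7% to 76.7% of genes with 0.5 to 1000 reads, and these steps gave depth and reads. Of the 40 genes, 19 fell on whole numbers in all groups; for the other 21 the authors' span may differ, and reads, intervals and exon-length levels are approximate. Spans of 12 genes overlap another coding gene, whose reads the counting may not separate. Reads multiplied by PCR are not independent molecules, so intervals cover counting error only.

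The 40 genes, the lists and the tests were chosen with earlier results of these data known. Genes named outside the 40 were up to 2 higher and 2 lower genes of each list. Promoters shown were those of the 3 largest and the 1 smallest log2 ratio of SKM against empty vector where the table held them. The E-box sites, the named fibroblast markers, Krt10 and Krt18 were chosen after their values were seen. Alternatives were pseudocounts of 0.1 and 5 RPKM in place of 1, no filter or one at 5 RPKM in place of 1, centring on the median, exon length, and removal of the GC trend in 20 bins. The procedure was tested on simulated counts with counting error only, no GC trend, and planted changes larger than the size of a call. That test does not cover changes near the size of a call or the GC trend. Python 3.11.15, pandas 2.3.3, numpy 2.4.6, SciPy 1.17.1 and matplotlib 3.10.9 were used.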

Additional observations from a re-analysis of the deposited data

How the results depend on the processing

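No paired analysis was possible because each deposited column holds 1 value per group, and no replicate could be left out. Counts of the 40 genes called higher than empty vector were 9 in OSKM, 6 in G3SKM and 14 in SKM. With a pseudocount of 5 RPKM they were 4, 2 and 7, and after removal of the GC trend 4 in OSKM and 7 in SKM, also with exon length added. Median centring gave 5 in OSKM. In G3SKM a pseudocount of 0.1 RPKM gave 10 and exon length 10. The share of all genes called was not taken under the pseudocounts or median centring. Whether those counts exceed the share over all genes is therefore not known. Without the 12 genes that overlap another coding gene, an alternative chosen after seeing the data, the counts were 5, 3 and 8. The shares of all genes called higher by the same rule were 4.82%, 7.11% and 8.88%. These are counts over fewer genes, so they cannot be set directly beside the others. Polr1e, Mybbp1a, Nop56, Nhp2, Rrp9 and Bop1, called higher in SKM, are among the 12 left out. No gene of the 40 was called lower than empty vector, and none was called in the other 3 comparisons, under any alternative run.

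The median log2 ratio to empty vector stayed above 0 throughout, from 0.72 in OSKM, 0.56 in G3SKM and 0.88 in SKM. A pseudocount of 0.1 RPKM gave 0.86, 0.66 and 1.00 and one of 5 RPKM 0.53, 0.38 and 0.55. A filter at 5 RPKM gave 0.83, 0.70 and 0.97, and median centring 0.54, 0.39 and 0.74. Exon length gave 0.84, 0.62 and 0.96, removal of the GC trend 0.57, 0.39 and 0.57, and both 0.61, 0.47 and 0.58. Without the 12 overlapping genes it was 0.77 in OSKM and 0.49 in G3SKM. For OSKM against SKM (-0.08) removal of the GC trend gave 0.00, with exon length 0.00. For G3SKM against SKM (-0.20) a pseudocount of 5 RPKM gave -0.08, a filter at 5 RPKM -0.32, GC removal -0.10 and both -0.08, and for OSKM against G3SKM (0.10) the filter at 5 RPKM gave 0.16. A larger pseudocount shrinks every ratio by construction; the cause of the other shifts was not tested.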
